A study of Sus scrofa with 11 samples.

Results

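The mitochondrially encoded subunits of respiratory complex I are the products of the genes ND1 to ND6 and ND4L, which lie on the mitochondrial chromosome rather than in the nucleus. A probe set was taken as a member where the platform annotation gave it ND1, ND2, ND3, ND4, ND5 or ND6 as its only gene symbol. Of these 6 symbols, 5 were found, each with 1 probe set, so there were 5 member probe sets among 27558 on the array, or 5 of 12217 genes with a probe set of their own. They are ND1 (probe set 15332941), ND2 (15332946), ND3 (15332964), ND5 (15332977) and ND6 (15332994). No probe set carried ND4 alone, and the 1 probe set that carried ND4 together with ND4L was not used. ND4L was not one of the 6 symbols. The genes have a digit in their names, whereas ND without a digit is the normal diet group.

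Complex I takes electrons from NADH, passes them to ubiquinone and pumps protons across the inner mitochondrial membrane, and heart muscle depends on it for most of its ATP. Its membrane arm has a core of mitochondrially encoded subunits, and its peripheral arm and many accessory subunits come from nuclear genes, so the complex is built from the products of both genomes. The mitochondrial chromosome is transcribed into long RNAs that are cut into single messages, with ND6 read from the opposite strand to the other ND genes.

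The samples were left ventricular tissue from the ischaemic zone of male Yorkshire pigs, all of which carried an ameroid constrictor, a ring that slowly closes a vessel, on the left circumflex artery. HFD pigs ate a high fat diet and ND pigs a normal diet for 12 weeks, and the myocardium was injected with EVs, taken here to be extracellular vesicles, or with vehicle, 5 weeks before the tissue was taken. There were 3 arrays of HFD+EV, 2 of HFD, 3 of ND+EV and 3 of ND, where HFD and ND without the suffix are the vehicle-injected groups. The labels call the arrays of a group biological replicates, give neither the source of the EVs nor the age of the pigs, and include no heart without a constrictor, so every comparison is among hearts with a narrowed vessel. Because HFD has only 2 arrays, no comparison with it can show the spread of that group well.

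The deposited values are log2 signal per probe set, and array medians lay between 4.36 and 4.48. The arrays differed in spread. The SD of the values within an array was 1.593 and 1.624 in HFD, and 1.447, 1.514 and 1.469 in ND. It was 1.507, 1.582 and 1.596 in HFD+EV and 1.499 to 1.544 in ND+EV. Both HFD arrays were therefore more widely spread than every ND array. Each array's correlation with the others averaged 0.951 to 0.962, except for ND replicate 1 with 0.925 and ND replicate 3 with 0.937. These 2 of the 3 ND arrays stood apart, and the main differences from ND are also given without them. The ND ranges and marker scores below include them. Heart muscle was present in the tissue as labelled. Of 14 cardiomyocyte markers 9 had a probe set of their own, and all 9 passed the filter on dim probe sets. Mean log2 signals were 13.39 for the cardiac actin gene ACTC1, 11.89 for the myosin light chain gene MYL3 and 12.42 for the myosin heavy chain gene MYH7.

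All 5 members passed the filter, which dropped the lowest 25% of probe sets by mean signal, those below 3.63, and left 20668 to be tested. ND6, with a mean of 3.93 over the 11 arrays, lay just above that bound, whereas the means of ND1, ND2, ND3 and ND5 were 12.33, 7.01, 11.28 and 12.80. Log2 signals of different probe sets depend on the probes and are not set against each other here. No member shared all its values with another probe set.

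ND1, a membrane subunit that helps to form the channel through which ubiquinone enters, had 12.53, 12.35 and 12.30 in HFD+EV hearts, 12.20 and 12.04 in HFD hearts, 12.56, 12.35 and 12.46 in ND+EV hearts, and 12.42, 12.22 and 12.23 in ND hearts. Both HFD arrays were below every array of the other groups. The means were 12.39 ± 0.13 in HFD+EV, 12.12 ± 0.11 in HFD, 12.46 ± 0.10 in ND+EV, and 12.29 ± 0.11 in the ND group (± SD over 3, 2, 3 and 3 arrays). From high to low the order was ND+EV, HFD+EV, ND and HFD, and only the last step, ND over HFD by 0.17, exceeded the larger SD of the neighbours.

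ND3, a small subunit with a loop beside the ubiquinone site that shifts between the active and resting forms of the enzyme, gave 11.57, 11.22 and 10.88 in HFD+EV hearts, 10.85 and 10.79 in HFD hearts, 11.71, 11.49 and 11.38 in ND+EV hearts, and 11.69, 11.16 and 11.40 in ND hearts. The HFD arrays were again the lowest of all 11, with HFD+EV replicate 3 close above them. The means were 11.22 ± 0.34 in HFD+EV, 10.82 ± 0.04 in HFD, 11.53 ± 0.16 in ND+EV and 11.41 ± 0.27 in ND. Of the neighbours in the order ND+EV, ND, HFD+EV and HFD, only HFD+EV and HFD differed by more than the larger SD, with a gap of 0.41.

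ND2, ND4 and ND5 are the antiporter-like subunits of the membrane arm, which carry the proton channels. ND2 had 7.40, 7.03 and 6.79 in HFD+EV hearts, 6.71 and 6.80 in HFD hearts, 7.09, 7.03 and 7.23 in ND+EV hearts, and 7.28, 6.40 and 7.33 in ND hearts. Its lowest array was ND replicate 2, so the ND group spanned nearly the whole range and overlapped all others. The means were 7.07 ± 0.31 in HFD+EV, 6.75 ± 0.07 in HFD, 7.12 ± 0.10 in ND+EV and 7.003 ± 0.527 in ND, and no neighbours in their order differed by more than the larger SD.

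ND5, the subunit at the far end of the membrane arm, varied least, with 12.90, 12.76 and 12.65 in HFD+EV hearts, 12.67 and 12.75 in HFD hearts, 12.87, 12.79 and 12.98 in ND+EV hearts, and 12.81, 12.77 and 12.86 in ND hearts. HFD+EV held both a low and a high array, and the HFD arrays lay just under the ND arrays. The means were 12.77 ± 0.12 in HFD+EV, 12.71 ± 0.06 in HFD, 12.88 ± 0.10 in ND+EV and 12.81 ± 0.05 in ND, with no step between neighbours above the larger SD.

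ND6, the subunit read from the opposite strand, whose helix bends as the enzyme changes form, had 3.93, 3.73 and 3.59 in HFD+EV hearts, 3.81 and 3.72 in HFD hearts, 4.05, 3.86 and 4.18 in ND+EV hearts, and 4.04, 3.92 and 4.38 in ND hearts. Signals this low are near the dim end of the array. Here the means of both high fat groups were below that of ND, and the HFD+EV mean was not above the HFD mean. The arrays of HFD+EV and ND overlapped, with HFD+EV replicate 1 just above ND replicate 2. The means were 3.75 ± 0.17 in HFD+EV, 3.77 ± 0.06 in HFD, 4.03 ± 0.16 in ND+EV and 4.11 ± 0.24 in ND, and the step from ND+EV to HFD, 0.26, was the only one above the larger SD.

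**Figure D1:**
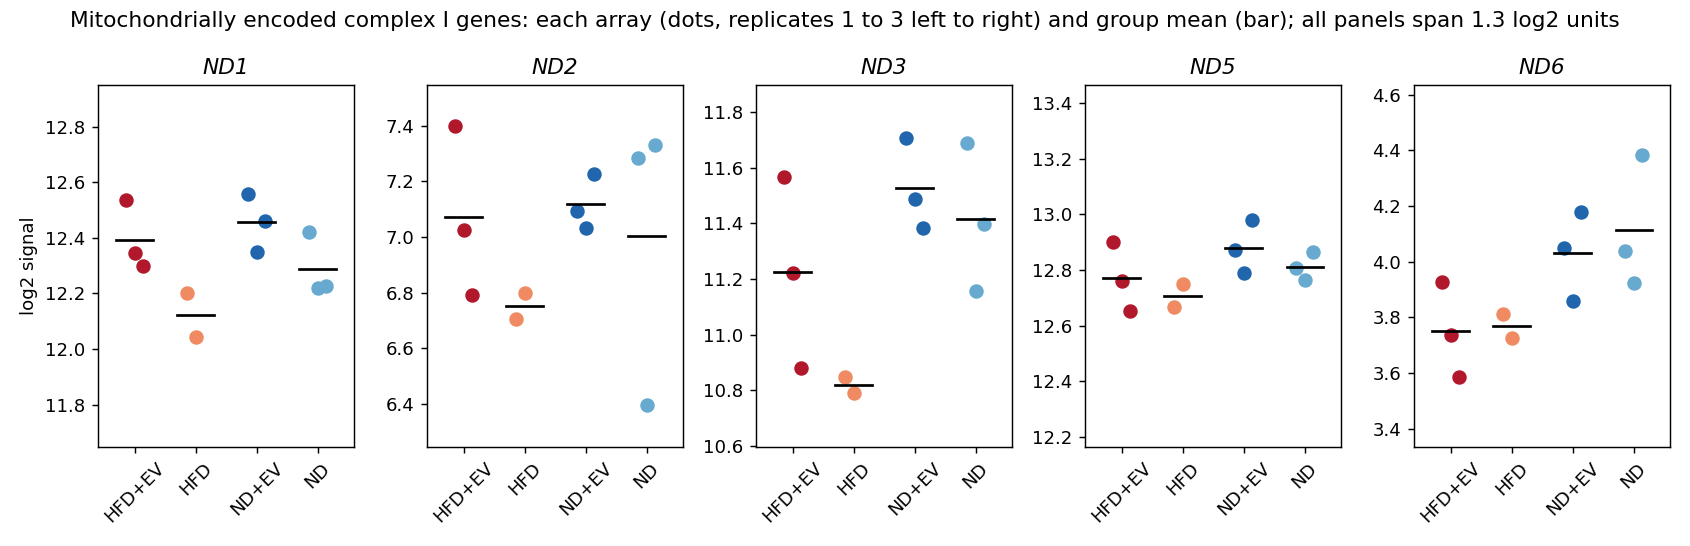
Log2 signal (vertical axes, each spanning the same range) of the 5 member genes on every array (dots, replicates left to right) in HFD+EV, HFD, ND+EV and ND, with the group mean as a bar. The 2 HFD arrays are the lowest for ND1 and ND3, and ND2 has its lowest value in ND replicate 2.

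Over all 11 arrays the SD was 0.16 for ND1, 0.31 for ND2, 0.33 for ND3, 0.10 for ND5 and 0.23 for ND6, against a median SD of 0.23 over all probe sets tested. The members varied together to different degrees. Pearson's r over the 11 arrays, given as a description because all values of an array share its RNA and its normalization, ran from 0.30 for ND1 with ND6 to 0.81 for ND1 with ND3. Each member's r with the mean of the other 4 was 0.70 for ND1, 0.75 for ND2, 0.84 for ND3, 0.82 for ND5 and 0.62 for ND6.

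The first comparison asks what the high fat diet did in vehicle-injected hearts. All 5 members were lower in HFD than in ND hearts, but none passed limma's moderated test after Benjamini-Hochberg adjustment over all probe sets at 0.05, where 0.735% of all probe sets passed. The largest difference was that of ND3, which was -0.60 ± 0.21 (SE) on the log2 scale, a ratio of 0.661, with a 95% interval from -1.06 to -0.13 and a limma adjusted p of 0.128. ND6 differed by -0.35 ± 0.17 with an adjusted p of 0.241. ND2 differed by -0.25 ± 0.27 (adjusted p = 0.587), ND1 by -0.17 ± 0.13 (adjusted p = 0.468) and ND5 by -0.10 ± 0.12 (adjusted p = 0.634).

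For ND1, ND3, ND5 and ND6 both HFD arrays lay below all 3 ND arrays, as did 19.7% of all probe sets tested. Being lower by any size was true of 52.5% of probe sets. Before adjustment 1 of the 5 members, ND3, had p under 0.05, and so did 24% of all probe sets. The median difference was -0.25 over the members and -0.02 over all probe sets. In bulk tissue, fewer cells of a type and less RNA per cell cannot be told apart. Without ND replicates 1 and 3, which leaves 1 ND array, ND2 was higher in HFD, by 0.36, while ND3 differed by -0.34 (limma adjusted p = 0.665), ND6 by -0.15 and ND1 by -0.10.

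Cell type markers were set beside these values, and in HFD against ND no gene of the 8 marker lists passed the threshold. A listed gene counts as measured where a probe set of its own passed the filter on dim probe sets. CD8A (lymphocyte), LEP (adipocyte) and ALAS2 (red cell) had a probe set that the filter dropped. List scores, the mean deviation of log2 signal from each gene's own mean over the arrays, were 0.02 to 0.23 in HFD and -0.22 to -0.02 in ND for the 9 measured cardiomyocyte markers. For the fibroblast markers, 9 of 10 measured, they were 0.13 to 0.64 in HFD and -0.84 to 0.08 in ND, and all 9 genes were higher in HFD. Scores were 0.19 to 0.52 in HFD and -0.34 to 0.18 in ND for 6 of 8 smooth muscle and pericyte markers, and the 2 measured red cell markers of 5 had -0.29 to -0.23 in HFD and -0.15 to 0.49 in ND. For 5 of 9 endothelial markers the scores overlapped, with 0.08 to 0.30 in HFD and -0.32 to 0.14 in ND. Scores also overlapped between the groups for macrophage markers (7 of 9, -0.06 to 0.03 in HFD and -0.55 to 0.10 in ND), lymphocyte markers (5 of 8, -0.05 to 0.14 in HFD and -0.12 to -0.02 in ND) and adipocyte markers (3 of 6, -0.01 to 0.07 in HFD and -0.36 to 0.26 in ND). The part of these scores in the members' differences was not tested.

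In EV-injected hearts the diet comparison, HFD+EV against ND+EV, also had all 5 members lower, a direction shared by 51.2% of probe sets, and none passed the test, as for all probe sets (0%). ND3 differed by -0.30 ± 0.19 and ND6 by -0.28 ± 0.15, with limma adjusted p of 0.746 and 0.720. ND5 differed by -0.11 ± 0.11, ND1 by -0.06 ± 0.12 and ND2 by -0.05 ± 0.24. The ranges of HFD+EV and ND+EV overlapped for every member. No member had an unadjusted p under 0.05, against 7.36% of all probe sets, and the members' median was -0.11 against -0.01 over all probe sets.

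Averaged over both injections, the diet difference was -0.45 ± 0.14 for ND3 (95% interval -0.76 to -0.13, limma adjusted p = 0.101) and -0.31 ± 0.11 for ND6 (interval -0.56 to -0.06, adjusted p = 0.133). All 5 members were lower, as were 52.6% of all probe sets. The difference was -0.15 ± 0.18 for ND2, -0.11 ± 0.09 for ND1 and -0.11 ± 0.08 for ND5. None of the 5 passed the threshold, which 1.17% of all probe sets passed, and 2 of the 5 had an unadjusted p under 0.05, as 24.7% of all probe sets had. ND3 passed without HFD+EV replicate 1, with a mean diet difference of -0.53 and a limma adjusted p of 0.0427. In that setting 1394 of all probe sets passed, against 242 in the main fit.

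**Figure D2:**
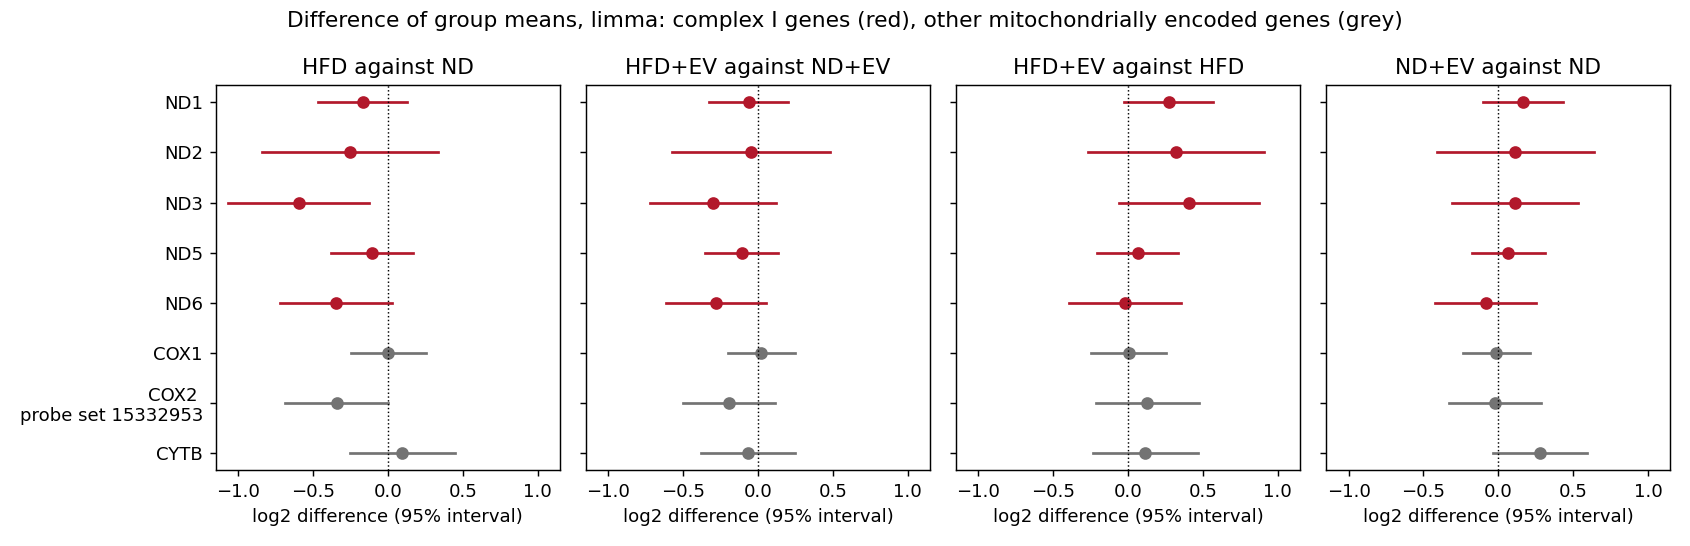
Difference in log2 signal (horizontal axes, with 95% intervals from limma) of the 5 member genes (red) and of COX1, 1 COX2 probe set and CYTB (grey) in 4 comparisons. The members lie left of 0 in both diet comparisons, and only the ND3 interval in HFD against ND, -1.06 to -0.13, leaves out 0 among the values shown.

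The injection comparisons ask what EVs did under each diet. On the high fat diet, HFD+EV against HFD, 4 of the 5 members were higher and none passed the test, as for all probe sets (0%). ND3 was higher by 0.41 ± 0.21 (interval -0.06 to 0.87, limma adjusted p = 0.905) and ND1 by 0.27 ± 0.13 (interval -0.03 to 0.57, adjusted p = 0.904). For both genes all 3 HFD+EV arrays lay above both HFD arrays, which held for 12.2% of probe sets. For ND3 that gap was narrow, with 10.88 in the lowest HFD+EV array and 10.85 in the highest HFD array. The ND3 difference was 0.23 without HFD+EV replicate 1 and 0.58 without HFD+EV replicate 3.

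ND2 differed by 0.32 ± 0.27 and ND5 by 0.06 ± 0.12 between HFD+EV and HFD, and ND6 by -0.02 ± 0.17. Their arrays overlapped, and without HFD+EV replicate 1 the ND2 difference was 0.16. The median over the members was 0.27, against 0.00 over all probe sets, of which 49.5% were higher by any size. No member had an unadjusted p under 0.05, against 5.54% of probe sets.

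On the normal diet, ND+EV against ND, 4 of the 5 members were again higher, as were 49.2% of all probe sets, but ND1, ND3 and ND5 turned to -0.25, -0.25 and -0.37 when the arrays were normalized again by cyclic loess. ND1 differed by 0.17 ± 0.12 (limma adjusted p = 0.698), ND2 by 0.11 ± 0.24, ND3 by 0.11 ± 0.19, ND5 by 0.07 ± 0.11 and ND6 by -0.09 ± 0.15. All 5 members overlapped between the groups, none passed the test (0% of all probe sets), and none had an unadjusted p under 0.05 (8.51% of all probe sets).

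The difference between the EV effects on the high fat and the normal diet was tested directly. It was 0.30 ± 0.28 for ND3 (interval -0.33 to 0.92, limma adjusted p = 0.774), 0.21 ± 0.36 for ND2, 0.10 ± 0.18 for ND1, 0.07 ± 0.23 for ND6 and -0.01 ± 0.17 for ND5, above 0 in 4 of 5 against 50.2% of all probe sets. None passed the threshold, as for all probe sets (0%), and none had an unadjusted p under 0.05, against 8.42% of all probe sets. Averaged over both diets, ND1 was higher with EVs by 0.22 ± 0.09, with an unadjusted p of 0.035 and a limma adjusted p of 0.913. The mean EV difference was 0.26 ± 0.14 for ND3, 0.22 ± 0.18 for ND2, 0.07 ± 0.08 for ND5 and -0.05 ± 0.11 for ND6, above 0 in 4 of 5 against 50.3% of all probe sets. None of the 5 passed the threshold (0% of all probe sets), and 1 of 5 had an unadjusted p under 0.05, against 5.42% of all probe sets.

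The other mitochondrially encoded genes with a probe set of their own were COX1 and COX2, which code for catalytic subunits of cytochrome c oxidase, and CYTB, the cytochrome b of complex III. COX1 was nearly level, with means of 13.09 in HFD+EV, 13.09 in HFD, 13.07 in ND+EV and 13.08 in ND, and an HFD minus ND difference of 0.00 ± 0.11 that became -0.51 under cyclic loess and -0.03 under quantile normalization. COX2 probe set 15332953 had 11.77, 11.36 and 11.45 in HFD+EV hearts, 11.42 and 11.38 in HFD hearts, 11.79, 11.62 and 11.74 in ND+EV hearts, and 11.88, 11.55 and 11.79 in ND hearts. Like ND3, it was lower in both HFD arrays than in every ND array, by -0.34 ± 0.16 (limma adjusted p = 0.211).

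CYTB had 11.88, 11.72 and 11.56 in HFD+EV hearts, 11.60 and 11.61 in HFD hearts, 11.81, 11.65 and 11.91 in ND+EV hearts, and 11.26, 11.64 and 11.63 in ND hearts. Its lowest array was ND replicate 1, and its HFD minus ND difference was 0.10 ± 0.16 with that array and -0.03 without it. The second COX2 probe set, 15332955, ranged from 7.86 to 10.81 and had its highest value in ND replicate 1, so the COX2 probe sets disagreed in spread, and its HFD minus ND difference was -1.03 ± 0.74 (limma adjusted p = 0.415) with that array and -0.14 without it. None of these 4 probe sets passed the test in any of the 7 comparisons.

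The r of these genes with the members' mean over the 11 arrays, as a description, was 0.90 for COX2 probe set 15332953, 0.56 for COX2 probe set 15332955, 0.32 for COX1 and 0.25 for CYTB. For CYTB the value turned on 1 array. Its r with ND1 was 0.38 over all arrays and 0.81 without ND replicate 1, with ND3 0.11 and 0.69, and with ND5 0.55 and 0.86.

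Most nuclear genes of complex I had a higher signal in HFD than in ND hearts, while the mitochondrial members had a lower one, and no test was made between the sets. Of all probe sets tested, 52.5% were lower in HFD than in ND. Of the nuclear core subunits, 5 of 7 listed genes were measured, all 5 were higher in HFD, and their median difference was 0.75. NDUFS3, an iron-sulphur arm subunit, rose in HFD hearts, to 8.79 ± 0.06 against 7.56 ± 0.37 in ND hearts, by 1.24 ± 0.23 (limma adjusted p = 0.0471). NDUFS1 and NDUFV2, which hold iron-sulphur clusters, differed by 0.83 ± 0.26 (adjusted p = 0.101) and 0.75 ± 0.20 (adjusted p = 0.0761).

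Of the accessory subunits 26 of 30 were measured, 24 were higher and 2 lower in HFD, with a median of 0.99. None of the 26 passed the adjusted test, and 18 had an unadjusted p under 0.05, against 24% of all probe sets. NDUFB8 differed by 1.36 ± 0.33 (limma adjusted p = 0.0660), NDUFAB1, the mitochondrial acyl carrier protein, by 0.9999 ± 0.2364 (adjusted p = 0.0643) and NDUFC1 by 0.98 ± 0.20 (adjusted p = 0.0557). Without ND replicates 1 and 3 the median was 0.46 for the core and 0.45 for the accessory genes. The adjusted p of NDUFS3 missed 0.05 in 16 of 23 alternative settings, and reached 0.301.

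Assembly factors build the complex without staying in it. Of 19 listed, 11 were measured and 10 were higher in HFD than in ND, with a median of 0.27. NDUFAF4, which acts in early assembly, rose to 4.96 ± 0.15 in HFD against 4.10 ± 0.09 in ND, by 0.86 ± 0.16 (limma adjusted p = 0.0471), a call lost in 17 of 22 alternative settings with an adjusted p of up to 0.291. NDUFAF3 differed by 0.53 ± 0.18 (adjusted p = 0.111) and NUBPL, which delivers iron-sulphur clusters, by 0.52 ± 0.18 (adjusted p = 0.117). Averaged over both injections, NDUFS3 rose by 0.83 ± 0.15 and NDUFAF4 by 0.58 ± 0.11 with the high fat diet (limma adjusted p = 0.0461 for each), calls lost in 14 of 22 and 14 of 21 alternative settings.

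The lists of genes that make and keep mitochondrial RNA had no member past the threshold in HFD against ND. Of 10 genes of mitochondrial transcription 7 had a probe set of their own and 5 passed the filter on dim probe sets. Of these 5 genes, 4 were higher and 1 lower (median 0.14). TFB1M, a methyltransferase of the mitochondrial ribosomal RNA, differed by 0.58 ± 0.26 (limma adjusted p = 0.203). Of 25 genes of RNA processing and decay 17 were measured, 13 higher and 4 lower (median 0.18), with PTCD2 at 0.53 ± 0.13 (adjusted p = 0.0649) and FASTKD2, an RNA-binding protein of mitochondrial RNA granules, at 0.59 ± 0.14 (adjusted p = 0.0681). Of 13 genes of mitochondrial DNA maintenance 6 had a probe set of their own and 4 passed the filter. Of these 4 genes, 2 were higher and 2 lower (median 0.10), with the nuclease MGME1 at 0.44 ± 0.16 (adjusted p = 0.136). The regulators of mitochondrial biogenesis had 6 of 10 measured, 1 higher and 5 lower (median -0.11).

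**Figure D3:**
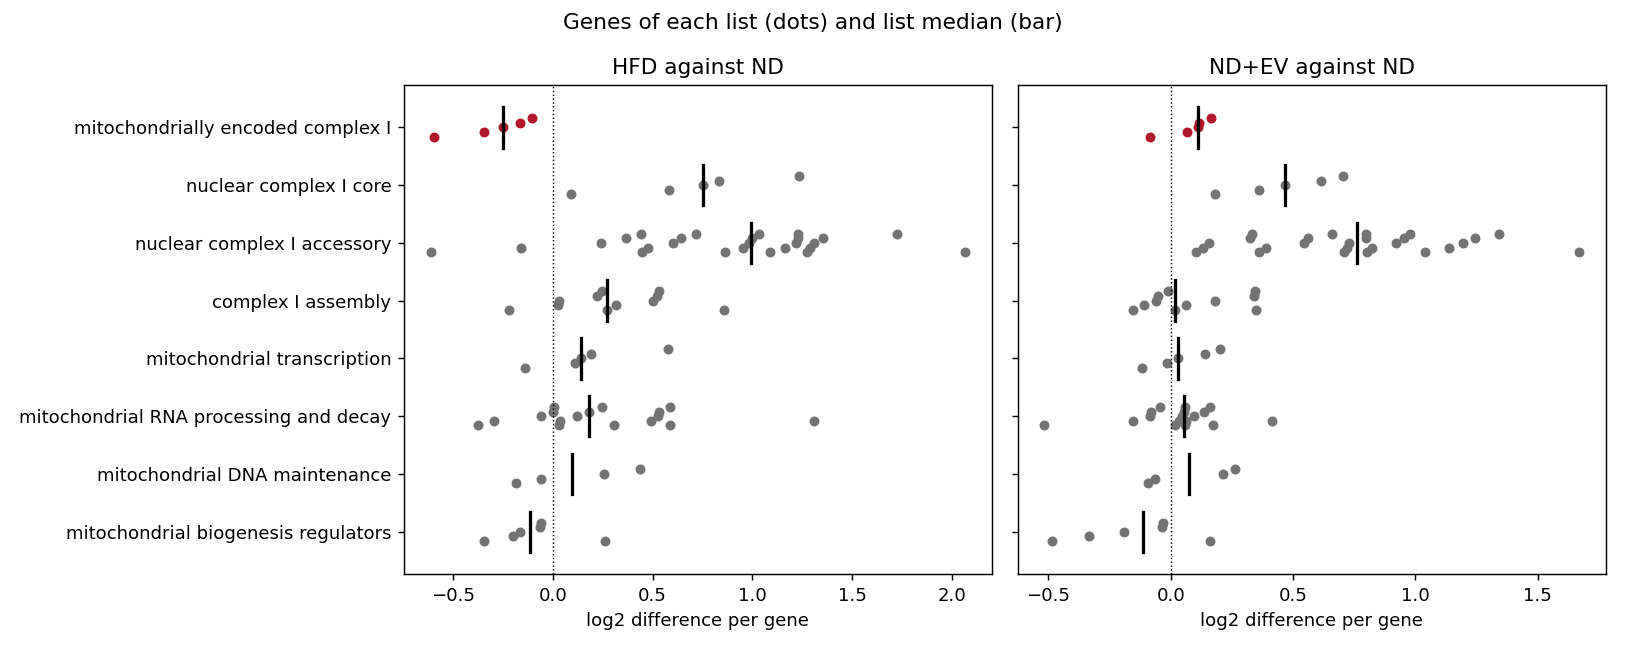
Log2 difference per gene (dots) and list median (bar) for the mitochondrially encoded complex I genes (red) and 7 lists of nuclear genes (grey), in HFD against ND and ND+EV against ND. In HFD against ND the mitochondrial genes have a median of -0.25 and the nuclear core and accessory genes medians of 0.75 and 0.99.

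In ND+EV against ND the nuclear subunits were also higher, 5 of 5 core genes (median 0.47) and 26 of 26 accessory genes (median 0.76), with none past the threshold. Of all probe sets 49.2% were higher. The ND arrays are the same as in HFD against ND, so the 2 comparisons are not independent. NDUFC2 differed by 1.67 ± 0.46, NDUFAB1 by 0.80 ± 0.21, NDUFV2 by 0.70 ± 0.18 and NDUFC1 by 0.66 ± 0.18, each with a limma adjusted p of 0.539, and NDUFS3 by 0.61 ± 0.20 (adjusted p = 0.548). With ND replicates 1 and 3 left out, NDUFC2 differed by 0.69, the core genes had a median of 0.34 and the accessory genes one of 0.29. In the same comparison the median of the mitochondrial members was 0.11, which became 0.24 without those arrays and -0.25 under cyclic loess.

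In HFD+EV against HFD, 1 of 5 core and 6 of 26 accessory genes were higher, with medians of -0.14 and -0.18, while 4 of the 5 mitochondrial members were higher, with a median of 0.27. Of all probe sets 49.5% were higher. Without HFD+EV replicate 1 the nuclear medians became 0.07 and 0.11, and 3 of the 5 members were higher, with a median of 0.16. NDUFAF4 differed by -0.50 ± 0.16 (limma adjusted p = 0.774). In HFD+EV against ND+EV the medians were 0.11 for the core and 0.00 for the accessory genes, again with none past the threshold.

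The difference of the EV effects, that on the high fat diet minus that on the normal diet, was below 0 for all 5 core and all 26 accessory genes measured, with medians of -0.50 and -0.997 against 0.00 over all probe sets, and none passed the threshold. Of all probe sets 50.2% were above 0, and the same ND arrays enter this difference. It was -0.98 ± 0.27 for NDUFC1, -1.34 ± 0.44 for NDUFB8, -0.81 ± 0.30 for NDUFS3 and -0.66 ± 0.26 for NDUFV2, each with a limma adjusted p of 0.572. With ND replicates 1 and 3 left out, these medians came to -0.41 and -0.47.

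Array by array, the mean deviation of the 5 mitochondrial members was 0.19, -0.05 and -0.23 in HFD+EV, -0.22 and -0.25 in HFD, 0.18, 0.03 and 0.18 in ND+EV, and 0.18, -0.18 and 0.17 in ND. For the 31 measured nuclear subunits it was -0.28, 0.44 and 0.33 in HFD+EV, 0.38 and 0.25 in HFD, 0.06, 0.31 and 0.12 in ND+EV, and -1.09, -0.13 and -0.39 in ND. The arrays HFD+EV replicate 1 and ND replicates 1 and 3 were high for the mitochondrial and low for the nuclear genes, and the 2 HFD arrays and HFD+EV replicate 3 were low for the mitochondrial and high for the nuclear genes. Of the 11 arrays, ND replicates 1 and 3 are also those with the lowest correlation with the other arrays and the smallest SD of values. The HFD arrays, HFD+EV replicates 2 and 3 and ND+EV replicate 2 had a larger SD than every ND array. The part of the correlation and of the spread in the pattern was not tested. The members' median in HFD against ND was -0.25 in the main fit and differed between settings. It was -0.29 under quantile normalization, -0.62 under cyclic loess and -0.15 with array weights.

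**Figure D4:**
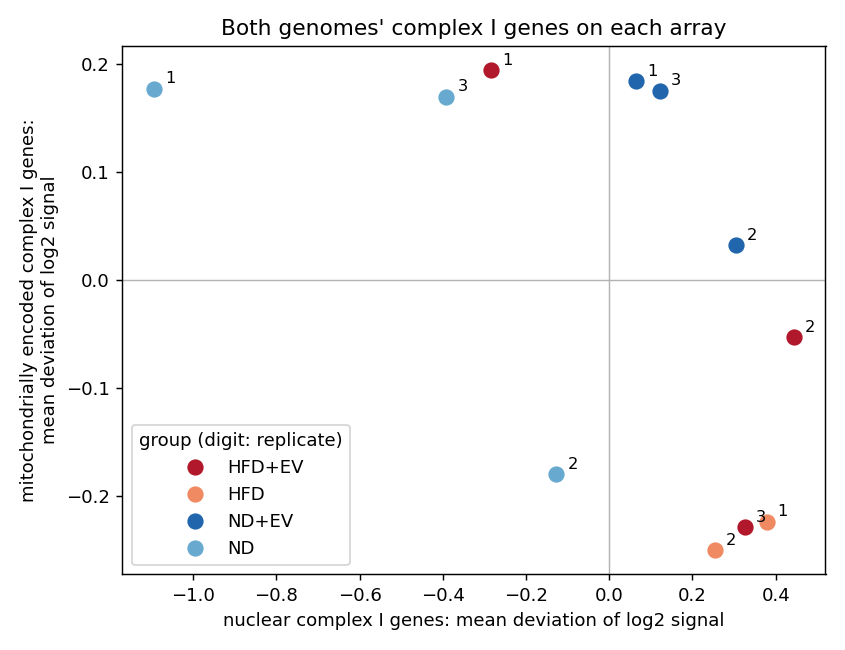
Mean deviation of log2 signal of the 5 mitochondrially encoded complex I genes (vertical axis) and of 31 nuclear complex I genes (horizontal axis) on each of the 11 arrays, coloured by group with the replicate number beside each dot. ND replicate 1 lies at the far left, at -1.09 for the nuclear and 0.18 for the mitochondrial genes, and both HFD arrays lie at the lower right.

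By Pearson's r over the 11 arrays, the named nuclear genes whose signal was most like the members' mean were CCL16 (0.94), a chemokine gene, C7H14orf159 (0.93), C16H5orf49 (0.92), SNCG (0.92), the gamma-synuclein gene, RBP2 (0.92), a retinol-binding protein gene, ZNF831 (0.92), LOC100520680 (0.91) and LOC100737030 (0.89). The values were picked as the highest of 10418 named probe sets, whose r had a median of -0.08 and 5th and 95th percentiles of -0.75 and 0.67. ND3 itself had an r of 0.93 with the mean it is part of.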

How the data were processed

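RNA from the ischaemic left ventricle of 11 pigs' hearts was measured on Affymetrix whole-transcript arrays, from 50 ng of total RNA per the labels' protocols. The values are log2 signals that the authors had normalized and deposited. Transcriptome Analysis Console is the tool that the submitters' processing notes record. Its version, how it normalized and the array's genome build are not stated there, and neither coordinates nor sequences are printed. That the log base is 2 was taken from the values and the tool named. The number of arrays limits the precision, and detection calls were not used.

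Probe sets were named from the platform annotation: 13157 carried 1 symbol, 523 several and 13878 none. Symbols were updated through the gene identifier, with 12841 matched to a RefSeq gene table (assembly Sscrofa11.1) and 7 changed. Groups came from the sample titles. On the deposited log2 values, limma 3.58.1 in R 4.3.3 fitted 1 mean per group over all 11 arrays (lmFit, eBayes, two-sided moderated test), after the lowest 25% of probe sets by mean were dropped. The p-values of 7 contrasts were adjusted by Benjamini-Hochberg over the 20668 probe sets tested, with 0.05 as the threshold. A gene with several probe sets was represented by the one of highest mean, except COX2, for which both are given. The p-values set each difference against the spread between arrays within groups, pooled over all 4 groups and moderated by limma. They therefore do not rest on the spread of the groups compared alone. The titles call the arrays of a group biological replicates.

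Every member and every other mitochondrially encoded probe set is named, with up to 3 genes of smallest unadjusted p per list and contrast, of which the text describes only some, and the 8 genes of highest r with the members' mean. The members, the 8 pathway lists (1 of them the other mitochondrially encoded genes) and the 8 marker lists were chosen with earlier results of these data known. The steps were also tried on simulated data with independent noise for each probe set and changes added in HFD alone. Those data had no array differences shared by many probe sets, so the trial does not measure how reliable the calls here are. Alternatives covered the filter, the normalization, array weights, the empirical Bayes options, the replicate block, the fit of 2 groups alone and leaving out arrays.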

Additional observations from a re-analysis of the deposited data

How the results depend on the processing

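Of 783 member values under the alternatives, 744 kept their direction and their side of the threshold, 37 turned direction and 2 passed the threshold, both of them ND3 in the mean diet difference. All 5 members were lower in HFD than in ND in 21 of the 22 settings that held all of them, in HFD+EV against ND+EV in 20 of 22, and in the mean diet difference in 20 of 21. With 1 mean per group, settings that change only the filter, the empirical Bayes options or arrays outside a comparison cannot change its differences. Such settings are included in all these counts. With the lowest 50% of probe sets dropped ND6 was not tested. The largest shift of the median of all probe sets was 0.09, in HFD against ND with the lowest 50% of probe sets dropped. That setting only removes probe sets and cannot change a member's difference. The members' median in HFD against ND, -0.25 in the main fit, was -0.62 under cyclic loess, -0.29 under quantile normalization and -0.15 with array weights. The number of arrays limits every value, and where a direction turned below the cause was not tested.

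The labels do not say whether equal replicate numbers pair animals, and the main fit did not pair them. Deviations of the 15 same-numbered pairs correlated from -0.10 to 0.33, with 5 over 0.1. Of 11 samples, 7 correlated best with their own number. No r of differently numbered pairs is set beside these values, so they do not settle whether the numbers pair animals. With the replicate number as a block, 1 member passed in the mean diet difference, ND3 with -0.49 (limma adjusted p = 0.0438), and it did so too without HFD+EV replicate 1. In the same difference 985 of all probe sets passed with the block and 1394 without that array. Leaving out each array in turn gave 0 to 1 members past the threshold there.

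The count over all probe sets was less stable. In HFD against ND, 152 passed (106 higher and 46 lower), against 938 with the block, 83 without ND replicate 1 and HFD+EV replicate 1, 0 to 1353 with each array left out, and 0 with array weights, cyclic loess, quantile normalization, no filter, the trend and robust options, the 2 groups fitted alone or without ND replicates 1 and 3. In the mean diet difference 242 passed (178 higher and 64 lower), against 1665 with array weights, 581 (501 and 80) with arrays centred on their medians, 463 with the 50% filter, 985 with the block, 1138 without ND replicate 1 and HFD+EV replicate 1, 0 to 1394 with each array left out, and 0 with cyclic loess, quantile normalization, no filter, the trend and robust options or without ND replicates 1 and 3. In HFD+EV against ND+EV 10 passed with array weights.

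Without ND replicates 1 and 3, log2 differences turned to 0.36 for ND2 and -0.036 for CYTB in HFD against ND, to 0.16 for ND2, 0.19 for COX2 probe set 15332955 and -0.052 for CYTB in the mean diet difference, to 0.11 for ND6, 0.17 for COX2 probe set 15332953 and 0.34 for COX2 probe set 15332955 in ND+EV against ND, to 0.044 for ND6 in the mean EV difference, and to -0.40 for ND2, -0.13 for ND6 and -0.041 for COX2 probe set 15332953 in the difference of EV effects. Under cyclic loess they turned to -0.25 for ND1, -0.25 for ND3, -0.37 for ND5 and -0.10 for CYTB in ND+EV against ND, to -0.11 for ND5 and -0.089 for COX2 probe set 15332953 in the mean EV difference, to 0.52 for ND5, -0.0069 for ND6 and 0.31 for CYTB in the difference of EV effects, to -0.51 for COX1 and -0.40 for CYTB in HFD against ND, and to -0.23 for COX1 and -0.25 for CYTB in the mean diet difference. Quantile normalization gave 0.21 for ND5 and -0.0021 for ND6 in the difference of EV effects, -0.031 for COX1 and -0.00037 for CYTB in HFD against ND, -0.023 for CYTB in the mean diet difference and 0.071 for COX1 in the mean EV difference.

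Array weights gave -0.053 for ND2, -0.048 for ND6 and -0.011 for COX1 in the difference of EV effects, -0.022 for COX1 in HFD+EV against HFD, -0.0085 for COX1 in HFD+EV against ND+EV, -0.0029 for COX1 and -0.022 for CYTB in the mean diet difference, and 0.039 for COX2 probe set 15332953 in ND+EV against ND. Centring gave COX1 -0.032 in the difference of EV effects, -0.026 in HFD+EV against HFD and 0.0056 in ND+EV against ND. Without both ND replicate 1 and HFD+EV replicate 1, a setting chosen after seeing the data, the difference of EV effects was -0.034 for ND1, -0.098 for ND2, -0.014 for ND3, -0.039 for COX1 and -0.044 for COX2 probe set 15332953. In that setting HFD+EV against HFD gave -0.0025 for ND5 and -0.042 for COX1, HFD+EV against ND+EV -0.025 for COX1 and -0.025 for COX2 probe set 15332955, the mean diet difference -0.0048 for COX1 and -0.088 for CYTB, ND+EV against ND 0.047 and 0.29 for COX2 probe sets 15332953 and 15332955, and HFD against ND -0.029 for CYTB.

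With each array left out in turn, direction turned within these ranges. In ND+EV against ND they were -0.19 to 0.28 for ND2, -0.019 to 0.25 for ND3, -0.18 to 0.049 for ND6, -0.046 to 0.026 for COX1, -0.12 to 0.047 for COX2 probe set 15332953 and -1.06 to 0.29 for 15332955. In HFD+EV against HFD they were -0.0025 to 0.12 for ND5, -0.11 to 0.062 for ND6 and -0.042 to 0.043 for COX1. In HFD+EV against ND+EV they were -0.21 to 0.094 for ND2, -0.025 to 0.055 for COX1, -0.025 to 0.80 for COX2 probe set 15332955 and -0.15 to 0.012 for CYTB. In HFD against ND they were -0.033 to 0.043 for COX1 and -0.029 to 0.16 for CYTB. In the mean diet difference they were -0.0099 to 0.032 for COX1, -0.53 to 0.16 for COX2 probe set 15332955 and -0.048 to 0.055 for CYTB. In the mean EV difference they were -0.10 to 0.015 for ND6, -0.027 to 0.015 for COX1, -0.010 to 0.094 for COX2 probe set 15332953 and -0.093 to 0.59 for 15332955. In the difference of EV effects they were -0.070 to 0.054 for ND5, -0.069 to 0.16 for ND6 and -0.029 to 0.055 for COX1.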
